A study of Mus musculus with 13 samples.

Results

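Gene expression was compared between 4 gliomas of the NG2creERTM mouse model and 3 pieces of control brain of the same model, 7 of the 13 Illumina bead arrays of the series. The arrays were chosen by their labels alone: those labelled as NG2creERTM driven tumor formed the NG2 tumor group, and those labelled as NG2creERTM driven control formed the NG2 control group. NG2creERTM is a Cre recombinase that becomes active with tamoxifen and is expressed from regulatory sequences of NG2, the proteoglycan encoded by Cspg4, which oligodendrocyte progenitors and pericytes carry. The other 6 arrays held 3 tumors and 3 controls of a Nestin-creERT2 model, in which Cre is driven from the gene of a neural stem cell filament. Per the design text, tumors were taken once mice with the required genotype had neurological symptoms, and control tissue came from the matching position in control mice. Neither that position nor the genes deleted by Cre nor the age, strain and treatment of the mice is named in the labels. The labels call the tumors independent and the controls biological replicates. The design text counts 5 tumors for this model, and 4 were analysed here.

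Oligodendrocyte progenitors are the main dividing cells of the adult brain, and gliomas of this lineage keep many of their genes. Cell division is run by waves of gene expression: E2F factors switch on genes for DNA synthesis in late G1, and the MuvB complex with B-Myb and FoxM1 switches on genes for mitosis in G2. Mature brain tissue, in contrast, is dominated by RNA of neurons, whose transmitter enzymes, receptors, ion channels and vesicle proteins make up much of its expression.

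Each array reported the brightness of 45281 probes, and 11927 genes had a named probe detected above the array's negative controls on at least 3 of the 13 arrays. Values are background-corrected, quantile-normalized log2 signals, and a change is the mean of the NG2 tumors minus the mean of the NG2 controls on that scale, with its standard error after the ± sign. A gene is said to have risen or fallen where limma's moderated test gave a Benjamini-Hochberg adjusted p below 0.05 over all genes. NG2 tumor arrays had a median raw brightness of 184.1 to 209.1, NG2 control arrays one of 116.9 to 138.5, and 43.46% to 45.67% of probes were detected in NG2 tumors, against 44.84% to 47.52% in NG2 controls. The 4 tumors shared slide 2 with controls 1 and 2, and control 3 lay on slide 3. Replicate arrays correlated at 0.9395 to 0.9545 among tumors and at 0.9732 to 0.9796 among controls across genes, which are not independent replicates.

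The labels were checked against defining markers of cell types. All 5 measured markers of oligodendrocyte progenitors rose, among them Pdgfra, Olig2, Sox10, Gpr17 and Cspg4, and the logarithm of their summed signal was 14.6 to 15.1 in tumors, against 11.8 to 11.9 in controls. The 5 measured neuronal markers fell (sums of 10.13 to 11.31 in tumors and 15.76 to 15.97 in controls), as did the 4 measured markers of myelinating oligodendrocytes and 4 of 5 astrocyte markers. Of 4 measured microglial markers, Csf1r alone fell, and the T cell gene Cd3e was not detected on any tumor array. In bulk tissue fewer cells of a type and less RNA per cell cannot be told apart, here and in all results that follow. How far the mix of cells accounts for any change was not tested.

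Of 11927 genes, 3167 (26.6%) rose and 2876 (24.1%) fell in NG2 tumors, so 50.7% passed the test. The change was at least 2-fold for 2141 genes that rose and 2100 that fell, at least 16-fold for 105 and 248, and at least 64-fold for 9 and 35. The 4 tumor arrays lay above all 3 control arrays for 3226 genes (27.0%) and below them for 2895 (24.3%), 51.3% together. Of the 6043 genes that passed, 5986 (99.06%) had all 4 tumors on 1 side of the control mean. These genes were selected by the test on the same arrays, so a high share follows from that choice. Within slide 2, with controls 1 and 2 alone, 2222 genes rose and 2178 fell, and with slide as a block 2545 rose and 2402 fell. In both of these fits the median changes of the 89 gene lists used below differed from those over all arrays by at most 0.25, and 0 changed sign. Scaling each array to its median in place of quantile normalization moved the median change of all genes to 0.46, against 0.09, and put 71.7% of the calls on the higher side, against 52.4%. Cyclic loess put 46.5% there. The direction of small changes therefore depends on the scaling.

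**Figure D1:**
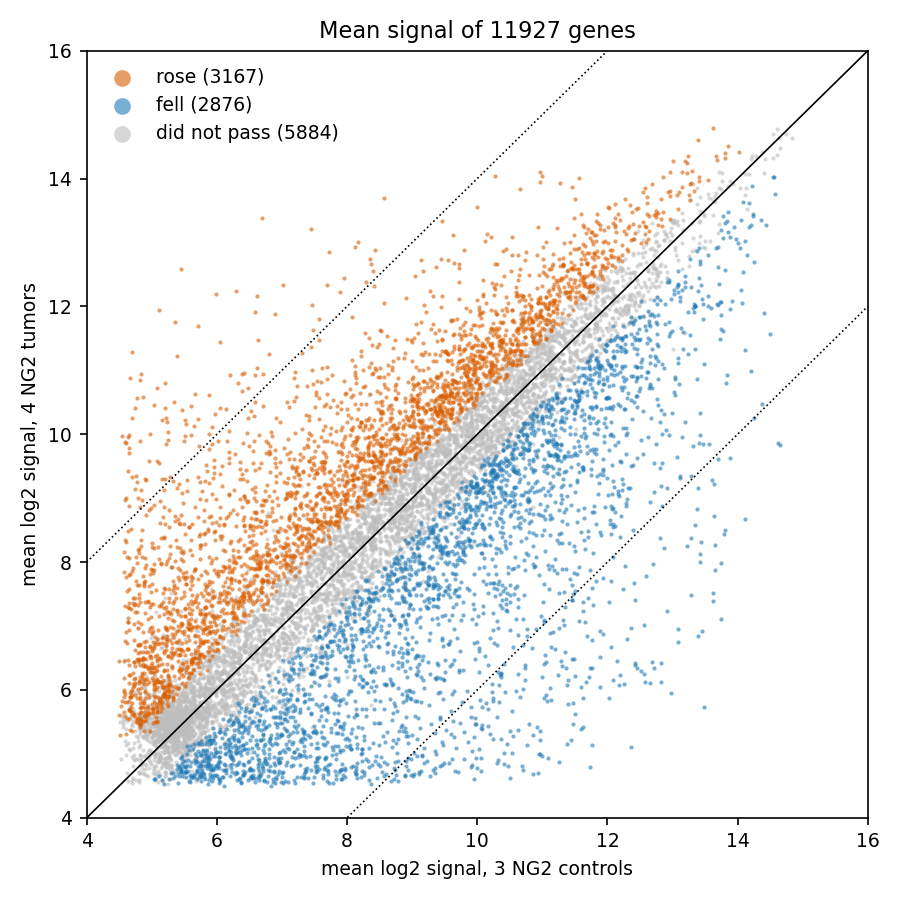
Mean log2 signal of each of the 11927 genes in the 4 NG2 tumors (vertical axis) against its mean in the 3 NG2 controls (horizontal axis). Orange points are the 3167 genes that rose, blue points the 2876 that fell and grey points those that did not pass the test; the diagonal marks equal means, and dotted lines mark 16-fold differences, past which 248 genes fell and 105 rose.

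The largest rise belonged to Pbk, a mitotic kinase, whose log2 signal was 12.38, 12.31, 12.63 and 12.99 in NG2 tumors, against 5.21, 5.69 and 5.44 in NG2 controls. The arrays did not overlap by a wide margin, and the change was 7.13 ± 0.22 (limma, adjusted p = 1.92e-10). The 20 largest rises among genes whose arrays did not overlap were nearly all genes of mitosis and DNA replication. The exceptions were Timp1, an inhibitor of matrix metalloproteases, and Cdkn2b, an inhibitor of the G1 kinases Cdk4 and Cdk6. At the other end stood Ddn, the gene of dendrin, a protein of dendrites, at 4.71, 5.42, 7.16 and 5.64 in NG2 tumors, against 13.34, 13.59 and 13.51 in NG2 controls. It changed by -7.74 ± 0.46 (adjusted p = 1.53e-08) and was detected on 2 of 4 tumor arrays. The 20 largest falls were led by genes of neurons, including Lamp5, Gad2, Cck, Slc32a1, Camk2a and Rbfox3.

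Some genes were present in 1 group and not well above background in the other. Detected on all 4 tumors and on no control were 214 genes, of which 210 rose, while 403 were detected on all 3 controls and on no tumor, of which 385 fell. For these only a bound can be given, the mean of the bright group over the lowest signal that could be told from background. Cdk1, the kinase that starts mitosis, was at least 59.9-fold higher in tumors, Pclaf, which binds the DNA polymerase clamp PCNA, at least 45.6-fold, and the microtubule depolymerase Kif2c at least 47.2-fold. The necroptosis protein Mlkl was at least 24.8-fold higher. Among genes lost from detection, Gng13, a G protein subunit of sensory cells, was at least 77.5-fold lower in tumors, Nrsn2 at least 49.4-fold and Th, the rate-limiting enzyme of dopamine synthesis, at least 42.1-fold.

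The gene groups below are 89 lists of known genes or gene families, of whose 3453 entries 2585 were measured, which covers 2458 genes. Members below detection on most arrays are not described, so the counts hold for the measured members. A member near background in the NG2 controls had little room to fall, so the absence of falls says little about it. This applied to 12 of 26 kinetochore and spindle checkpoint genes and to 4 of 8 mitotic kinesins. Across all genes the shares to set beside them are the 26.6% that rose and the 24.1% that fell, and the median change of all genes was 0.09.

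**Figure D2:**
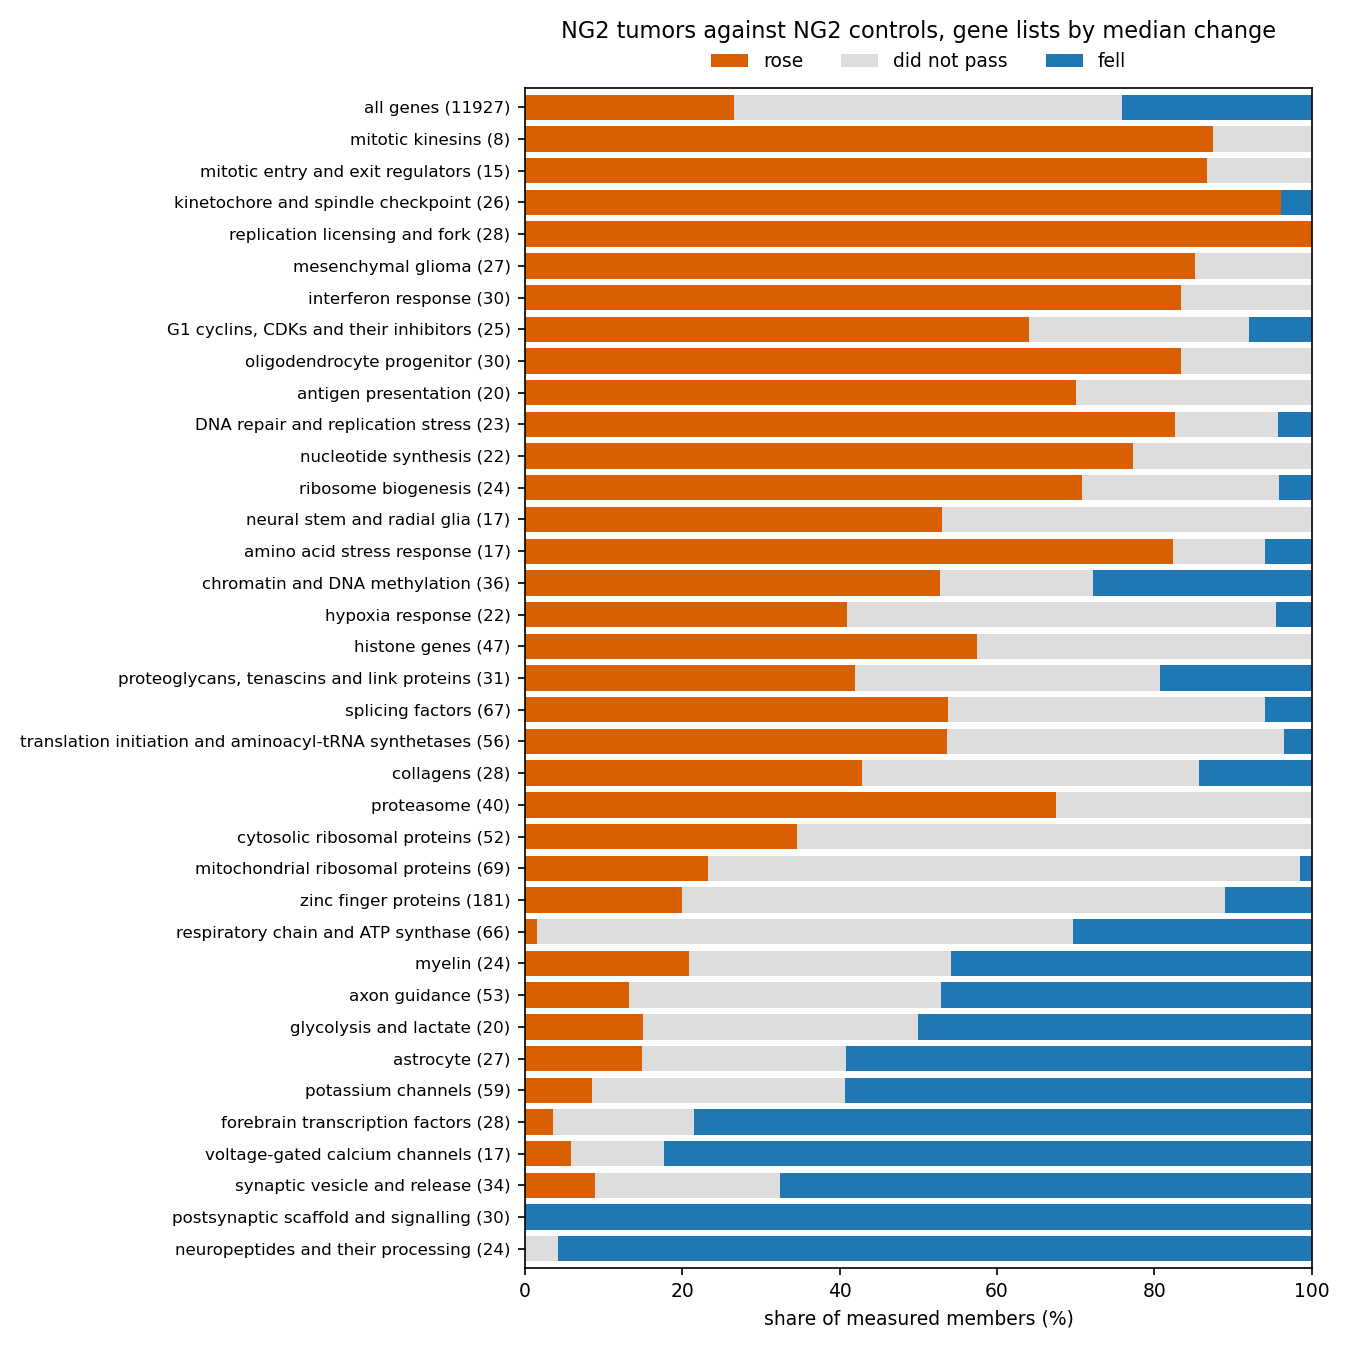
Share of the measured members of 36 gene lists that rose (orange), did not pass (grey) or fell (blue) in NG2 tumors against NG2 controls, sorted by the median change of the list, with the number of measured members beside each name. The top bar shows all 11927 genes, of which 26.6% rose and 24.1% fell; lists of cell division lie at the upper end, and lists of synaptic genes at the lower end.

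Nearly all measured genes of cell division rose. Of the measured kinetochore and spindle checkpoint genes 25 of 26 rose (median change 2.997), of the replication licensing and fork genes all 28 (2.61), of mitotic kinesins 7 of 8 (3.81) and of mitotic entry and exit regulators 13 of 15 (3.71). Top2a, the topoisomerase that untangles chromosomes, had 12.37, 11.45, 11.60 and 12.34 in NG2 tumors, against 4.77, 5.68 and 4.89 in NG2 controls, a change of 6.83 ± 0.36 (adjusted p = 5.64e-09). Prc1, which bundles the microtubules of the central spindle, had 13.26, 13.32, 13.17 and 13.79 in NG2 tumors, against 6.61, 6.69 and 6.76 in NG2 controls (change 6.69 ± 0.29). In both genes the lowest tumor lay more than 16-fold above the highest control. Birc5, the survivin subunit of the chromosomal passenger complex, changed by 5.84 ± 0.28, and its partner Cdca8 by 5.56 ± 0.32. Cenpa, the histone of centromeres, rose by 5.76 ± 0.24, the anaphase activator Cdc20 by 5.95 ± 0.27, and Aurka, the centrosome kinase, by 5.17 ± 0.23. The only member of the kinetochore list that fell was Zwint (-1.09 ± 0.18), whose protein is also found at synapses. Zwint has several probes, and with the mean of its probes it no longer passed and turned to a positive value of change 0.31, adjusted p = 0.289. The central spindle kinesin Kif23 did not pass (0.57 ± 0.44) but rose with the mean of its probes (change 3.00, adjusted p = 6.86e-08).

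Of the replication genes, the helicase subunits Mcm2 and Mcm3 changed by 4.55 ± 0.24 and 5.04 ± 0.27, the loading factor Mcm10 by 4.92 ± 0.22, and Dbf4, which activates the kinase that fires origins, by 4.64 ± 0.23. Mcm3 stood at 10.40, 9.59, 10.47 and 10.57 in NG2 tumors, against 5.40, 5.31 and 4.95 in NG2 controls. All 4 tumors were within about 1 unit of each other, and every control was near background. Nucleotide synthesis followed, with 17 of 22 measured members higher and none lower, led by thymidine kinase Tk1 (at least 24.6-fold higher), thymidylate synthase Tyms (4.72 ± 0.24) and the ribonucleotide reductase subunit Rrm1 (2.75 ± 0.23). Of DNA repair and replication stress genes 19 of 23 rose, among them the Chk1 adaptor Clspn (4.72 ± 0.36) and the recombination helicase Rad54l (4.12 ± 0.36), while Xrcc3, a gene of recombination repair, fell (-2.07 ± 0.29).

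The promoters of these genes are shown because members that move together in mitosis share short sequence elements. RefSeq promoters (GRCm38.p6, 250 bases before to 50 after the start) were found for 86 of the 105 genes that rose at least 16-fold, and the first listed promoter of each gene was searched on both strands. The letters TTTGAA are the core of the CHR, the element bound by the MuvB complex, and CCAAT is the box bound by NF-Y. The 3 genes with the largest rises whose promoters held both are printed 5′ to 3′ on the strand of the gene, with every match on either strand in capitals.
Top2a, chr11:99024140-99024439, minus strand: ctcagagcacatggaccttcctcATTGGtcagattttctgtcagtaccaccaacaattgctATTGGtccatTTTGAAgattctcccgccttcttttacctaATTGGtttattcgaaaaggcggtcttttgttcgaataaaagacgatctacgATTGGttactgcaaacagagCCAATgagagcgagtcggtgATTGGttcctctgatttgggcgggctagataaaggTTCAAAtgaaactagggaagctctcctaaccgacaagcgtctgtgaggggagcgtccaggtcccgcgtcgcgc
Prc1, chr7:80294201-80294500, plus strand: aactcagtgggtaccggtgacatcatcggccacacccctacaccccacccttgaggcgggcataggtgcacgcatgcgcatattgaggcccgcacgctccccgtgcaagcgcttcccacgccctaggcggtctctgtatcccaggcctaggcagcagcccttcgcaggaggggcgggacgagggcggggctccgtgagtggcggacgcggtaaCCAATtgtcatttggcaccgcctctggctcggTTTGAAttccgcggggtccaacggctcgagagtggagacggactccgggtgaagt
Cdk1, chr10:69352863-69353162, minus strand: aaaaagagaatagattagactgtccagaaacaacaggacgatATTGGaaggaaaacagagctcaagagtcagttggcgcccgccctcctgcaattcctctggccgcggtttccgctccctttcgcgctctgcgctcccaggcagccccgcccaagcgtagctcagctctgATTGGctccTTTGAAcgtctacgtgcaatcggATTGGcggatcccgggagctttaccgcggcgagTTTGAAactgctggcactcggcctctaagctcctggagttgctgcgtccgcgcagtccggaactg
The Top2a promoter held 2 matches of TTTGAA and 6 of CCAAT, that of Prc1 1 of each, and that of Cdk1 2 and 3. Both elements stood together in 25.6% of the 86 promoters of genes that rose at least 16-fold, in 1.5% of the 197 found for genes that fell at least 16-fold, in 4.9% of the 9591 found for all genes tested, and in 7.1% of all 27025 promoters of the table. TTTGAA alone was in 31.4%, 9.1%, 11.7% and 18.1% of these sets in the same order, CCAAT in 59.3%, 28.4%, 38.2% and 37.9%, and the E2F motif TTCCCGC in 16.3%, 4.1%, 8.2% and 4.7%. The median GC content was 58.0%, 60.0%, 60.7% and 52.7%. Among the 2537 promoters found for all genes that rose, both elements stood together in 7.1%, TTTGAA in 14.2%, CCAAT in 41.4% and TTCCCGC in 10.7%. The sets of genes that rose or fell were chosen by their change, so the shares describe them and were not tested. A match of letters is not a bound site.

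The brakes of the G1 phase rose together with its drivers. Of G1 cyclins, kinases and inhibitors 16 of 25 rose, including Cdk2 (4.56 ± 0.23) and the D-type cyclin Ccnd1 (3.15 ± 0.27). Cdkn2b, which encodes p15, stood at 9.64, 11.80, 10.51 and 11.24 in NG2 tumors, against 5.14, 5.09 and 5.40 in NG2 controls. Its neighbour Cdkn2a, which encodes p16 and p19Arf, stood at 8.86, 11.40, 10.18 and 10.46 in NG2 tumors, against 5.64, 4.95 and 4.87 in NG2 controls. For both genes tumor 1 was the lowest of the 4 tumors and still far above every control, with changes of 5.59 ± 0.43 and 5.07 ± 0.44. Which of the 2 products the Cdkn2a probe reads is not known here. Cdk5, a kinase of neurons rather than of the cell cycle, fell (-1.40 ± 0.22), as did its activator Cdk5r1 (-3.79 ± 0.46).

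The genes most often deleted in mouse gliomas of this kind could be followed only in part. Nf1, the gene of a Ras GTPase-activating protein, had 5.94, 6.13, 5.34 and 5.004 in NG2 tumors, against 5.87, 6.32 and 7.80 in NG2 controls. Tumors and controls overlapped, control 3 was the highest array, and the fall of -1.06 ± 0.40 (adjusted p = 0.0378) was lost in 10 of 21 alternative fits, among them those without control 3 (change -0.49, adjusted p = 0.231), without tumor 3 (adjusted p = 0.0813) and without tumor 4 (adjusted p = 0.0994). Trp53 was not among the genes tested, and whether the Nf1 probe lies in deleted sequence is not known, so these values check no label. The driver gene itself, Cspg4, rose (2.96 ± 0.44), as did Nes (4.04 ± 0.33).

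Chromatin genes moved in both directions. Of 36 measured, 19 rose and 10 fell. Uhrf1, which guides maintenance DNA methylation at the replication fork, had 11.96, 11.69, 11.40 and 11.99 in NG2 tumors, against 5.44, 5.52 and 5.09 in NG2 controls, a change of 6.41 ± 0.29. The histone chaperone subunit Chaf1b (4.97 ± 0.33) and the chromatin protein Hmgb2 (4.84 ± 0.30) rose as well. Actl6b, the BAF complex subunit of mature neurons, had 4.86, 5.12, 5.15 and 4.76 in NG2 tumors, against 10.69, 11.09 and 11.21 in NG2 controls. The probe shown was not above background on any tumor and fell at least 46.4-fold, while another probe of the gene was detected on all 4 tumors. The neuronal remodeller Chd5 changed by -4.64 ± 0.36. Of 47 histone genes 27 rose and none fell, with H2ac11 at 4.96 ± 0.45 and H2ac15 at 4.45 ± 0.39; copies within a histone family are nearly identical, so a probe may read several of them. Nuclear import and pore genes rose in 21 of 40 (32 under array-median scaling), led by the importin Kpna2 (at least 8.11-fold).

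Genes for making RNA and protein moved up by small steps. Splicing factors rose in 36 of 67 (median 0.71), ribosome biogenesis genes in 17 of 24 (1.20), translation initiation factors and tRNA synthetases in 30 of 56 (0.69) and proteasome subunits in 27 of 40 (0.67). Among them were the nucleolar proteins Nop58 (1.81 ± 0.16) and Ebna1bp2 (2.01 ± 0.22) and the splicing regulators Hnrnpf (2.33 ± 0.22) and Hnrnpa1 (1.92 ± 0.25). Probes of Ebna1bp2 had significant changes of opposite sign, and its rise passed in all 21 alternative fits, that with the mean of its probes included. Eif4ebp1, which holds back the cap-binding factor eIF4E, rose further, to 11.75, 11.40, 11.75 and 10.97 in NG2 tumors, against 7.45, 7.84 and 7.41 in NG2 controls. Structural proteins of the ribosome changed less: 18 of 52 of the cytosolic ribosome rose and none fell, and 16 of 69 of the mitochondrial ribosome rose and 1 fell. Both counts depended on the scaling: for the cytosolic ribosome 10 were higher and 3 lower under loess and 28 higher and none lower under array-median scaling, and for the mitochondrial ribosome 12 were higher and 2 lower under loess and 41 higher and none lower under array-median scaling. The largest proteasome changes were those of the immunoproteasome subunits Psmb8 (3.01 ± 0.42) and Psmb9 (2.16 ± 0.46), which interferon induces.

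Energy metabolism leaned the other way. Of 66 measured subunits of the respiratory chain and ATP synthase, 1 rose, 20 fell and 45 did not pass, with a median of -0.51. Under loess 33 fell and none rose, but under array-median scaling 1 fell and 4 rose, and the median was -0.08, which is -0.55 relative to the median of all genes there. Individual subunits such as Ndufa11 (-1.14 ± 0.29) kept their sign and did not pass under that scaling. Of glycolytic genes 3 rose and 10 fell, and under array-median scaling 3 rose and 5 fell, with a median of -0.19 against -0.76. Eno2, the enolase of neurons, had 10.52, 10.997, 10.07 and 9.43 in NG2 tumors, against 14.32, 14.26 and 14.17 in NG2 controls (change -3.997 ± 0.29), and the muscle-type mutase Pgam2 was at least 6.46-fold lower. Among those that rose, the lactate dehydrogenase subunit Ldha changed by 1.29 ± 0.23 and phosphoglycerate kinase Pgk1 by 1.09 ± 0.19. Of 22 citrate cycle genes 3 rose and 8 fell (median -0.37), and under array-median scaling 5 rose and 4 fell and the median was 0.14. The cytosolic and mitochondrial isocitrate dehydrogenases Idh1 (1.47 ± 0.20) and Idh2 (1.43 ± 0.24) rose, and pyruvate carboxylase Pcx fell (-1.60 ± 0.29).

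Serine and one-carbon metabolism supplied clear rises. Mthfd2, a mitochondrial folate enzyme of dividing cells, had 12.34, 12.43, 12.14 and 12.98 in NG2 tumors, against 9.20, 9.17 and 8.74 in NG2 controls, a change of 3.44 ± 0.25. Shmt1 (4.20 ± 0.36), Shmt2 (2.41 ± 0.31) and Phgdh, the entry enzyme of serine synthesis (2.10 ± 0.25), rose too, 6 of 12 members in all with none lower. Of 17 genes of the amino acid stress response, which include Atf4 itself, 14 rose and 2 did not pass. Among those higher were the pseudokinase Trib3 (3.89 ± 0.38) and the arginine transporter Slc7a3 (3.48 ± 0.50). The cystine transporter Slc7a11 was the only member that fell (-1.46 ± 0.42). Its call was lost in 6 of 21 alternative fits, among them the fit with slide as a block and the fit without control 3 (change -1.21, adjusted p = 0.0575). Of unfolded protein and heat shock genes 11 of 22 rose, led by Creld2 (2.35 ± 0.34). The heme oxygenase Hmox1 (3.64 ± 0.48) and the peroxiredoxin Prdx4 (2.56 ± 0.21) rose among antioxidants, whereas the brain metallothionein Mt3 fell (-2.52 ± 0.58). Hypoxia genes rose in 9 of 22 (15 under array-median scaling), with Angptl4 at 11.23, 8.50, 10.41 and 9.84 in NG2 tumors, against 7.28, 7.33 and 7.74 in NG2 controls. Its tumors spread widely, and the lowest of them lay above the highest control. Of 17 p53 targets 6 rose, 1 fell and 10 did not pass. Of 23 apoptosis regulators 9 rose, 2 fell and 12 did not pass, with the death receptor adaptor Fadd at 2.93 ± 0.33 and its partner Casp8 at 2.90 ± 0.35 among those higher.

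Most genes of synaptic transmission fell. All 30 measured postsynaptic scaffold and signalling genes fell (median -2.94), 23 of 24 neuropeptide genes (-3.52), 23 of 34 synaptic vesicle genes (-2.74), all 10 GABA and glycine receptor subunits (-2.25) and 14 of 18 genes of transmitter synthesis and transport (-2.24). Gad2, which makes GABA, had 6.42, 6.18, 6.50 and 4.70 in NG2 tumors, against 12.86, 12.74 and 13.29 in NG2 controls, a change of -7.01 ± 0.56 (adjusted p = 2.53e-07). The vesicular glutamate transporter Slc17a7 had 4.77, 4.74, 6.67 and 5.35 in NG2 tumors, against 11.49, 11.60 and 11.68 in NG2 controls, a change of -6.21 ± 0.66. Both genes were far below every control in all 4 tumors, and tumor 3 was the highest of the tumors for each. Of ionotropic glutamate receptor subunits 6 of 14 fell and 8 did not pass. Camk2a, the kinase of excitatory synapses, changed by -6.40 ± 0.34, the AMPA receptor subunit Gria1 by -6.13 ± 0.41, and the vesicle protein Syp by -5.31 ± 0.49. Within the vesicle list Vamp3 (1.58 ± 0.20) and Snap23 (1.52 ± 0.28), which serve secretion outside neurons, rose.

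**Figure D3:**
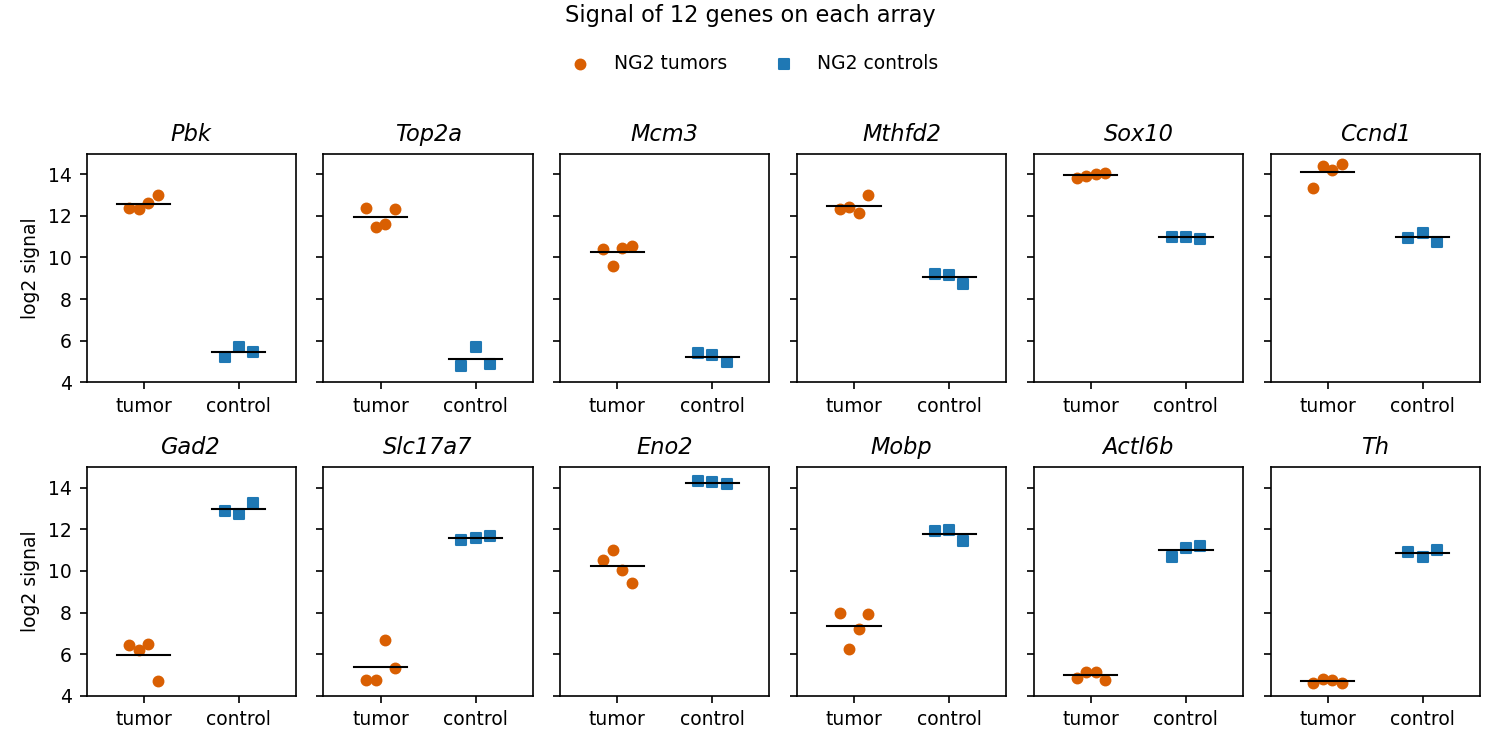
Log2 signal of 12 genes on each array, NG2 tumors as orange circles on the left of each panel and NG2 controls as blue squares on the right, with a bar at each group mean. The upper 6 genes, from Pbk to Ccnd1, are higher on all 4 tumor arrays than on any control array, and the lower 6, from Gad2 to Th, are lower on all 4.

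Ion channels followed the same direction with exceptions. Voltage-gated sodium channels fell in 7 of 8 members, with the subunit Scn2b at 6.70, 6.77, 6.59 and 5.88 in NG2 tumors, against 10.92, 11.70 and 11.72 in NG2 controls, and voltage-gated calcium channels in 14 of 17. Potassium channels fell in 35 of 59 and rose in 5. Kcnh3 was at least 22.6-fold lower, while the background potassium channel Kcnk5 rose (2.79 ± 0.46), as did the AMPA receptor auxiliary subunit Cacng4 (1.83 ± 0.39), known from oligodendrocyte progenitors. Among pumps the plasma membrane calcium ATPase Atp2b2 changed by -6.22 ± 0.33 and the sodium pump subunit Atp1b1 by -2.93 ± 0.21. Of calcium-binding genes 18 of 26 fell, led by Hpcal4 (-6.34 ± 0.57), and 6 rose, among them the annexin Anxa2 (2.91 ± 0.32). Immediate early genes split: the neuronal activity genes Arc (-3.24 ± 0.51), Egr4 (-3.18 ± 0.56) and Npas4 (at least 4.49-fold lower) fell, and Ier3 (3.38 ± 0.31) and Egr2 (2.81 ± 0.57) rose.

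Large falls were also seen in Th, Scgn, S100a5, Calb2 and Cdhr1, for which the controls of the 2 models lay far apart, so the values of both control groups are given. All 5 genes are known from the olfactory bulb, but they form no list and no such theme was tested. Th had 4.60, 4.80, 4.74 and 4.63 in NG2 tumors, against 10.91, 10.65 and 11.01 in NG2 controls, and the mean of the Nestin controls was 5.39. Scgn, the gene of the calcium sensor secretagogin, averaged 4.62 in NG2 tumors, against 10.5 in NG2 controls, and 5.30 in Nestin controls. S100a5, a calcium-binding protein of olfactory neurons, had 4.66, 4.74, 4.68 and 4.73 in NG2 tumors, against 10.30, 10.55 and 11.98 in NG2 controls, with 4.95 in Nestin controls. Calretinin, Calb2, had 8.56, 8.22, 7.83 and 6.89 in NG2 tumors, against 13.77, 13.58 and 13.61 in NG2 controls, with 9.50 in Nestin controls, and the photoreceptor cadherin gene Cdhr1 had 6.08, 8.30, 7.78 and 5.49 in NG2 tumors, against 13.83, 13.10 and 13.43 in NG2 controls, with 9.19 in Nestin controls. In each of these genes every NG2 control lay more than 8-fold above the mean of the Nestin controls. The change in NG2 tumors differed from that in Nestin tumors for Th, Scgn, S100a5 and Calb2 but not by this test for Cdhr1 (limma, contrast of both changes, adjusted p below 0.05). Of all genes tested 3.80% differed. That contrast contains the gap between the 2 control groups, for which these 5 genes were singled out. The result therefore describes them and is no independent test. Gng13 differed little between the control groups, with means of 11.7 in NG2 controls and 11.2 in Nestin controls. Whether the 2 sets of controls came from the same position in the brain is not given.

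Patterning factors of the brain's regions moved in both directions. Of 28 forebrain factors 22 fell, including Tbr1 of cortical excitatory neurons (at least 15.9-fold lower) and Bcl11b (-4.82 ± 0.42). The interneuron factor Dlx1 had 9.04, 6.49, 5.54 and 4.63 in NG2 tumors, against 12.55, 11.999 and 12.72 in NG2 controls. All tumors were below all controls, with tumor 1 the highest of them. The 1 forebrain factor that rose was Gsx1, a factor of ventral progenitors, at least 12.1-fold. Of midbrain, hindbrain and thalamus factors 9 rose and 3 fell. En1, a factor of the midbrain and hindbrain border, had 10.52, 9.15, 9.63 and 9.53 in NG2 tumors, against 4.52, 4.65 and 4.78 in NG2 controls, and its relative En2 had 10.83, 9.90, 9.85 and 10.38 in NG2 tumors, against 5.53, 5.91 and 5.69 in NG2 controls. Every tumor was above every control for both, and the tumor mean of En1 was at least 20.2-fold higher. Irx2 was at least 24-fold higher in tumors. Zic1 fell (-3.46 ± 0.74).

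Hox genes, which set position in the hindbrain and spinal cord and are silent in the forebrain, were detected in some tumors. Of 38 Hox genes on the array 11 were measured, 4 rose and none fell. Of the 11, 6 were near background in the NG2 controls and so had little room to fall. Hoxa5 had 9.59, 9.24, 9.71 and 11.33 in NG2 tumors, against 4.55, 4.48 and 4.61 in NG2 controls, at least 24.2-fold higher in tumors. Hoxa7 had 9.95, 8.70, 8.40 and 6.93 in NG2 tumors, against 4.59, 4.70 and 4.63 in NG2 controls, and Hoxa2 had 5.16, 9.09, 9.34 and 9.005 in NG2 tumors, against 4.52, 4.57 and 4.63 in NG2 controls, so that tumor 1 was near background for Hoxa2. Hoxc9 and Hoxd8 were detected in tumor 1 alone, where they stood at 8.52 and 8.51, and were between 4.46 and 4.86 on the other 6 arrays. Hoxa4 rose as well (2.82 ± 0.28).

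Progenitor genes and genes of mature glia moved in opposite directions. Of 30 oligodendrocyte progenitor genes 25 rose and none fell (median 1.91), and of 24 myelin genes 5 rose and 11 fell. Sox10, the lineage factor, had 13.82, 13.92, 13.996 and 14.04 in NG2 tumors, against 11, 10.99 and 10.89 in NG2 controls. The 4 tumors lay close together above all controls, and the change was 2.98 ± 0.43. Olig2 had 8.46, 9.24, 8.19 and 9.56 in NG2 tumors, against 5.62, 5.76 and 5.62 in NG2 controls (3.20 ± 0.34), and the progenitor proteoglycan Vcan was at least 11.2-fold higher. Among the myelin genes that fell were Mobp (-4.44 ± 0.49) and Mog (-3.31 ± 0.50), whereas the enzymes of myelin lipid synthesis Gal3st1 (2.40 ± 0.44) and Ugt8a (1.33 ± 0.26) rose. Astrocyte genes fell in 16 of 27, among them the gap junction gene Gjb6 (-4.83 ± 0.60) and the GABA transporter Slc6a11 (-3.59 ± 0.61). Gfap did not pass and overlapped between groups, at 12.96, 11.01, 11.16 and 10.79 in NG2 tumors, against 10.73, 10.85 and 11.68 in NG2 controls. Radial glia genes rose in 9 of 17 and none fell, with Vim at 3.86 ± 0.34 and Tnc at 5.41 ± 0.70. Of 35 cytoskeletal genes of immature and mature cells 11 rose and 16 fell, with the actin-binding Tagln2 higher (5.13 ± 0.34) and Stmn2, a tubulin regulator of neurons, lower (-6.05 ± 0.68).

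Of 22 measured imprinted genes 11 fell and 4 rose (median -1.25), and array-median scaling gave 9 lower and 7 higher. Dlk1, an imprinted gene of progenitor cells, had 11.48, 12.27, 9.28 and 10.75 in NG2 tumors, against 5.29, 7.09 and 6.80 in NG2 controls, and its neighbour Meg3, a maternally expressed RNA abundant in neurons, had 5.15, 5.57, 5.51 and 5.35 in NG2 tumors, against 10.19, 10.30 and 9.71 in NG2 controls. They changed by 4.55 ± 0.57 and -4.67 ± 0.33. Usp29 was at least 21.7-fold lower, Peg3 fell (-2.68 ± 0.30) and Mest rose (2.06 ± 0.36). Of the circadian clock genes 10 of 16 fell, led by Cry2 (-2.85 ± 0.22), and 1 rose, against 4 lower and 2 higher under array-median scaling.

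In growth factor signalling the receptor Pdgfra rose, to 12.03, 13.20, 11.55 and 12.79 in NG2 tumors, against 9.81, 9.37 and 9.98 in NG2 controls (2.67 ± 0.42). Egfr did not pass (-0.92 ± 0.57, adjusted p = 0.199) and overlapped, at 8.77, 8.33, 6.15 and 7.93 in NG2 tumors, against 8.78, 8.25 and 9.10 in NG2 controls. Feedback and target genes of the MAPK pathway rose in 12 of 27 and fell in 7: Etv4 (3.22 ± 0.31) and Ccnd1 were among those higher, and the neuronal exchange factor Rasgrp1 (-5.44 ± 0.38) among those lower. Myc had 8.97, 7.55, 8.001 and 8.21 in NG2 tumors, against 4.69, 5.07 and 4.60 in NG2 controls, at least 7.01-fold higher in tumors. Igfbp3 (4.34 ± 0.39) and Igfbp2 (1.93 ± 0.33) rose among the binding proteins of insulin-like growth factors. Of 18 Notch pathway genes 6 rose, 4 fell and 8 did not pass, and array-median scaling gave 9 higher and 1 lower. Notch1 (1.96 ± 0.27) and its target Hes1 (1.69 ± 0.29) rose. Of 26 PI3K, Akt and mTOR genes 18 did not pass, and the phosphatase Inpp4b fell, at least 8.61-fold by the probe used, which was not above background on any tumor. Array-median scaling gave 6 PI3K, Akt and mTOR genes higher and 2 lower, against 3 and 5. Of Hedgehog genes 3 of 11 rose and 1 fell, the receptor Smo (1.82 ± 0.32) and the ligand Shh (-2.99 ± 0.54) on opposite sides. The medians of the PI3K, Hedgehog and Wnt lists changed sign with the scaling.

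Interferon genes rose in 25 of 30 measured members with none lower (median 2.19), and antigen presentation genes in 14 of 20 (1.77). The level was not the same in each tumor. Usp18, a brake on interferon signalling, had 10.21, 12.61, 11.28 and 9.63 in NG2 tumors, against 6.32, 7.06 and 6.38 in NG2 controls, and the chemokine Cxcl10 had 9.86, 11.22, 10.18 and 5.93 in NG2 tumors, against 4.91, 5.08 and 4.68 in NG2 controls. Tumor 4 was the lowest and tumor 2 the highest of the tumors for both, and the median of the list above the control mean was 1.37 in tumor 4, against 2.995 in tumor 2. The class II gene H2-Ab1 changed by 2.49 ± 0.41. Microglia and macrophage genes rose in 10 of 24 and fell in 2. Gpnmb (2.87 ± 0.56) and Lyz2 (2.86 ± 0.43), genes of activated or infiltrating macrophages, rose, and Siglech, a gene of resting microglia, fell (-2.31 ± 0.56). Csf1r, the receptor that microglia need to survive, changed by -0.94 ± 0.37 (adjusted p = 0.0483), a call lost in 12 of 21 alternative fits, among them those that left out any 1 control (adjusted p of 0.054 without control 1) or tumor 2, 3 or 4. The neuronal chemokine Cx3cl1 fell (-3.71 ± 0.26). Of 7 measured lymphocyte genes 1 rose.

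Matrix and vessel genes changed in part. Proteoglycans, tenascins and link proteins rose in 13 of 31, collagens in 12 of 28, and laminins, nidogens and fibronectin-type genes in 11 of 23. Col18a1, a basement membrane collagen, had 11.81, 12.56, 12.90 and 12.05 in NG2 tumors, against 7.88, 7.50 and 7.69 in NG2 controls (4.64 ± 0.33). The hyaluronan receptor Cd44 changed by 5.33 ± 0.35, and the hyaluronan synthase Has2 was at least 15.5-fold higher. Timp1 had 10.57, 11.71, 12.93 and 11.54 in NG2 tumors, against 5.19, 6.15 and 5.80 in NG2 controls, with tumor 1 lowest and tumor 3 highest. Genes of the mesenchymal glioma signature, to which Timp1 and Cd44 belong, rose in 23 of 27. Angpt2, a destabiliser of vessels made by activated endothelium, had 11.99, 12.03, 13.01 and 12.27 in NG2 tumors, against 7.01, 7.04 and 7.01 in NG2 controls (5.30 ± 0.41), while its receptor Tek fell (-1.33 ± 0.28). Mcam, an adhesion protein of vessel walls and melanoma cells, changed by 3.77 ± 0.40. Axon guidance genes fell in 25 of 53 and rose in 7 (11 under array-median scaling), with the ephrin receptor Epha7 at least 9.86-fold lower and the plexin Plxnb3, known from the oligodendrocyte lineage, higher (2.74 ± 0.36).

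**Figure D4:**
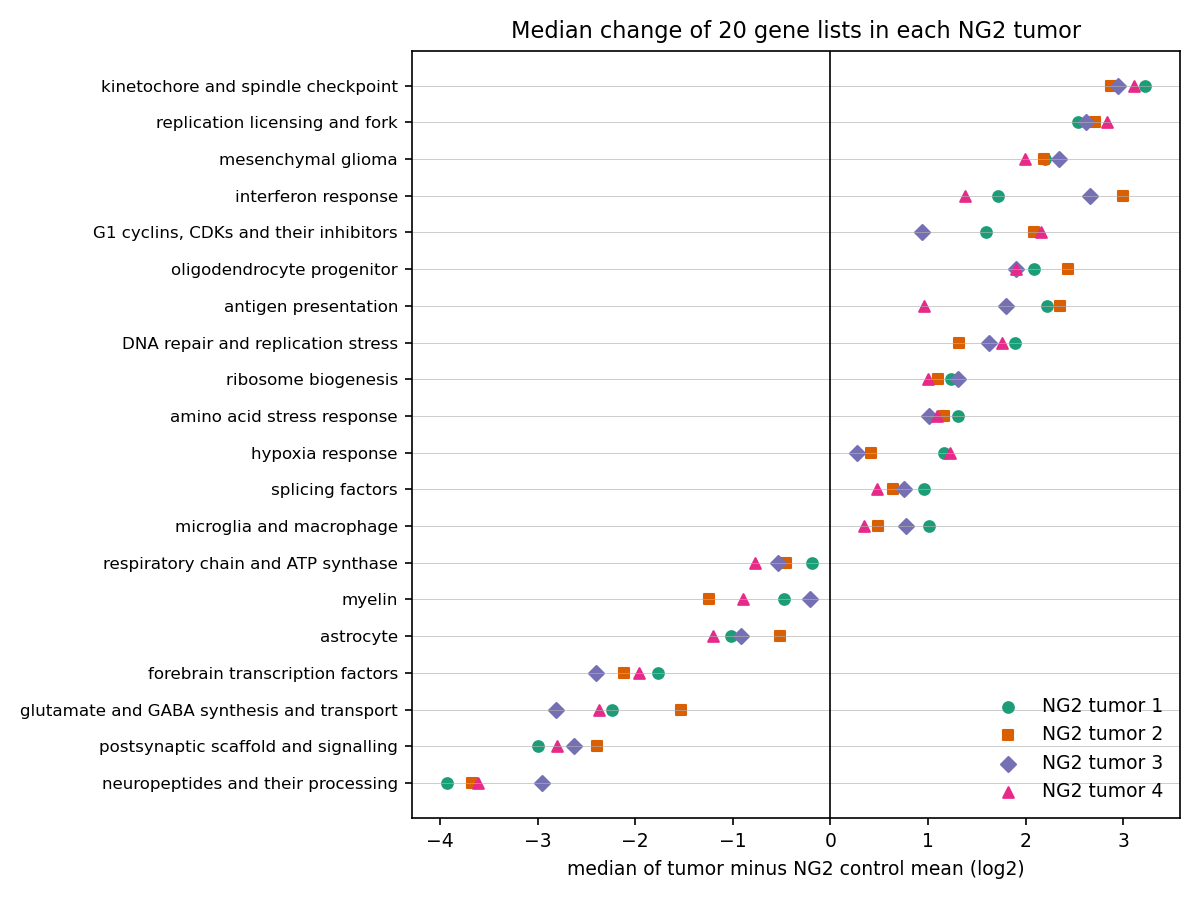
Median change of 20 gene lists in each NG2 tumor, as the median over measured members of the tumor's log2 signal minus the mean of the 3 NG2 controls (horizontal axis), with 1 symbol per tumor. The 4 tumors lie close together for cell division and synaptic lists and are spread for the interferon list, where tumor 4 lies at 1.37.

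The 4 tumors were not alike in stretches of neighbouring genes. For 11899 genes with a place in the RefSeq gene order, the signal of each tumor was taken relative to the median of the other 3 tumors and averaged as a median over 9 neighbouring genes. Windows more than 2-fold above the other tumors numbered 44, 127, 11 and 0 in tumors 1 to 4, and windows more than 2-fold below numbered 20, 10, 1 and 22. Of these, 7 in tumor 1 and 5 in tumor 4 were centred on the stretch around Met described below, where tumors 2 and 3 were high and so raised the median of the others. Each control, taken relative to the other 2, had 0 windows in either direction. With 15 genes per window, a width added after seeing the data, the tumors had 35, 117, 0 and 0 above and 0, 0, 0 and 4 below, and the controls 0. The SD of chromosome medians was 0.164 to 0.217 in tumors and 0.022 to 0.057 in controls. Tumors varied more than controls gene by gene as well, with a median SD of 0.352, against 0.277. The 4 stretches described next were chosen after their values were seen and do not cover all of these windows. In tumor 2 other windows more than 2-fold above lay in a run from Lpcat3 to Tuba3a on chromosome 6, which spanned 37 genes. Several more lay on chromosome 19, among them Ppp1r14b to Spindoc (24 genes spanned), Sf3b2 to Ap5b1 (23) and Tm7sf2 to Rasgrp2 (22).

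The sharpest stretch ran from Met to Cftr, 5 neighbouring measured genes of chromosome 6. Met, the receptor of hepatocyte growth factor, had 6.01, 13.40, 12.24 and 4.83 in NG2 tumors, against 5.11, 4.56 and 4.83 in NG2 controls. Cftr, a chloride channel gene, had 4.64, 10.26, 10.12 and 4.74 in NG2 tumors, against 4.93, 4.91 and 5.77 in NG2 controls, and St7 had 7.99, 12.91, 13.12 and 8.39 in NG2 tumors, against 8.37, 8.36 and 8.31 in NG2 controls. Tumors 2 and 3 were far above the other 5 arrays in all 3, and also in Wnt2 and Asz1, the other measured genes of the stretch. The measured genes on either side did not share this pattern. Cav1 had 12.15, 11.25, 11.88 and 12.35 in NG2 tumors, against 9.61, 8.61 and 9.42 in NG2 controls. Cttnbp2 had 4.99, 5.28, 5.03 and 5.15 in NG2 tumors, against 6.74, 6.14 and 5.65 in NG2 controls. In the limma fit to all 13 arrays the rise of Met had an adjusted p of 0.035. With the NG2 arrays alone Met did not pass (change 4.3, adjusted p = 0.0806). The test was no longer passed without tumor 2 (adjusted p = 0.0885) or tumor 3 (adjusted p = 0.0967). Nor was it passed without control 1 (adjusted p = 0.0711), control 2 (adjusted p = 0.0903) or control 3 (adjusted p = 0.0842). The other 4 genes did not pass. Each of the 5 genes had 1 probe that passed the detection filter.

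In tumor 1 the stretch from Phc3 to Atp11b on chromosome 3, 21 measured genes, lay 2.09 above the median of the other tumors, and 18 of its genes were at least 2-fold above it. Pik3ca, the catalytic subunit of PI3 kinase, lies in it and had 10.06, 7.57, 7.35 and 7.97 in NG2 tumors, against 7.15, 7.06 and 6.94 in NG2 controls. Sox2, the neural stem cell factor, lies there too and had 11.79, 10.30, 10.04 and 10.86 in NG2 tumors, against 8.74, 8.29 and 7.79 in NG2 controls. Tumor 1 was the highest array for both. Also in tumor 1, 10 measured genes from Mtss1 to Adcy8 on chromosome 15, Myc among them, lay 1.75 above the others. Mtss1, a membrane-bending protein, had 12.60, 7.94, 8.11 and 7.76 in NG2 tumors, against 6.80, 6.74 and 6.23 in NG2 controls. For Myc the excess of tumor 1 over the next tumor was under 1 unit. In tumor 2, 12 measured genes from Rassf8 to Klhl42 on chromosome 6 lay 2.35 above the others, 11 of them at least 2-fold. Fgfr1op2 in that stretch had 8.30, 11.60, 8.11 and 9.61 in NG2 tumors, against 9.10, 8.92 and 7.97 in NG2 controls. The control medians over each of the 4 stretches stayed between -0.43 and 0.56. Single genes of the controls went further, for example to 1.28 in control 1 in the stretch from Rassf8 to Klhl42. Pik3ca, Fgfr1op2, Mtss1, Cav1 and Cttnbp2 were named after their values were seen. DNA was not measured, and whether gene copies differ was not tested.

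**Figure D5:**
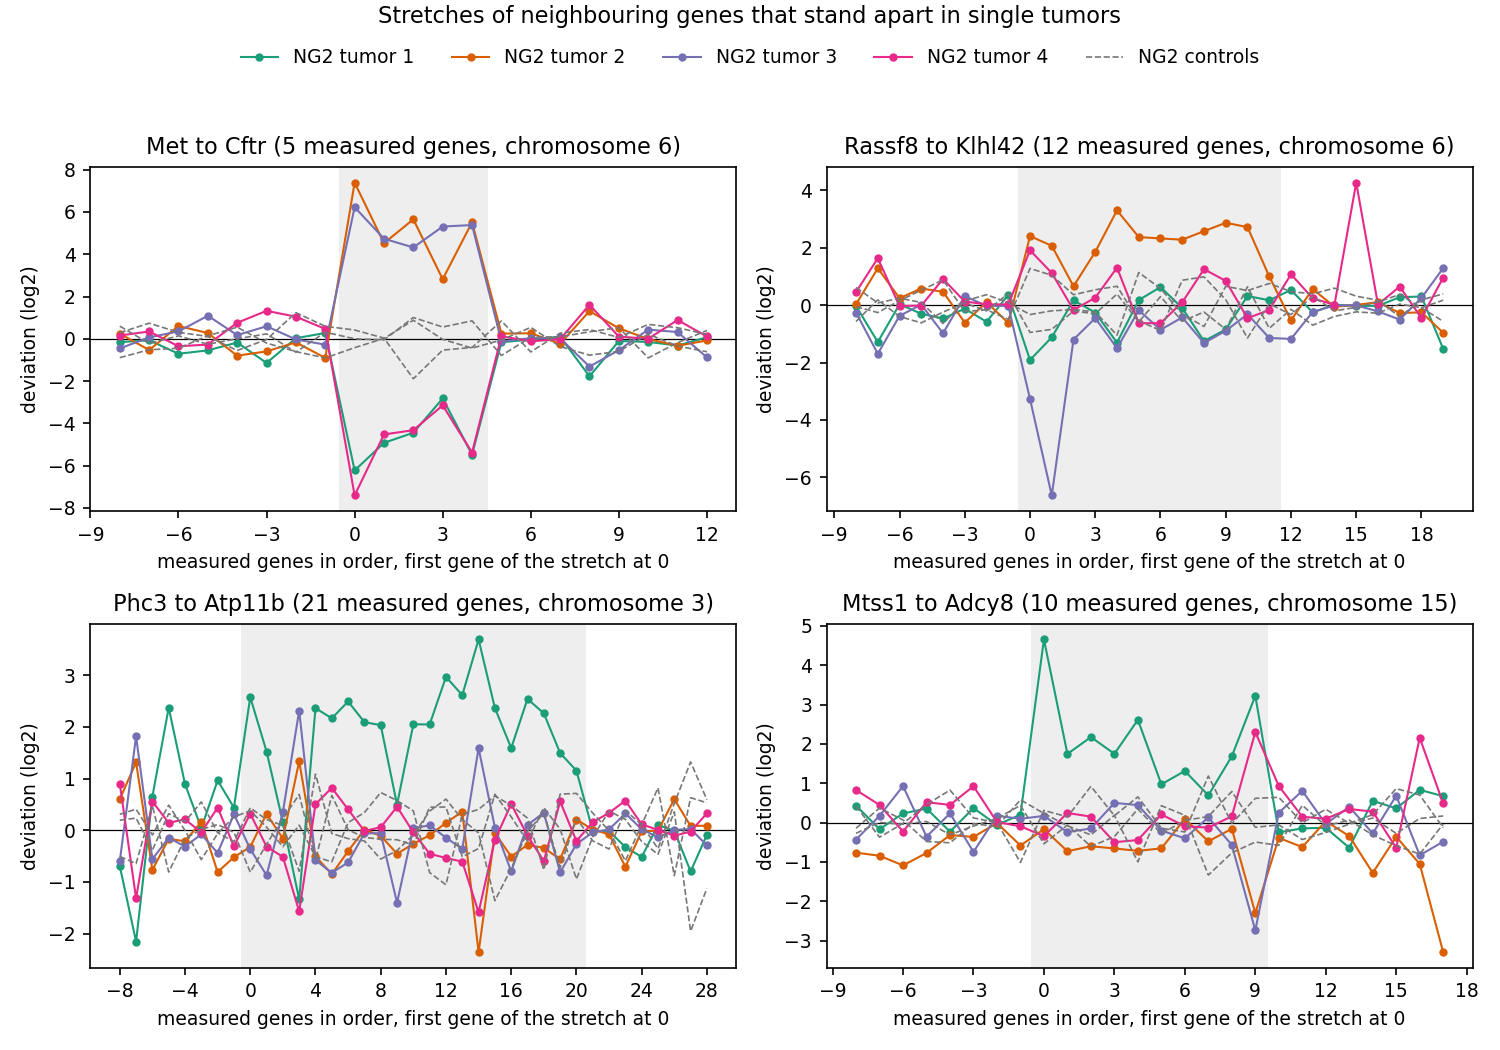
Deviation of each gene from the median of the other arrays of its group (vertical axis, log2) along the measured genes in and around 4 stretches of neighbouring genes (horizontal axis, gene order), 1 panel per stretch, with the 4 NG2 tumors as coloured lines and the 3 NG2 controls as grey dashed lines. Shading marks the stretch: tumors 2 and 3 stand out from Met to Cftr, tumor 2 from Rassf8 to Klhl42, and tumor 1 from Phc3 to Atp11b and from Mtss1 to Adcy8, while the control medians over each stretch stay between -0.43 and 0.56.

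Other genes that varied most among the tumors stood alone. Hhipl2 had 5.20, 11.27, 11.31 and 11.37 in NG2 tumors, against 4.62, 4.60 and 4.72 in NG2 controls, near background in tumor 1 and high in the other 3. Tfap2b, a neural crest factor, had 4.68, 6.54, 11.88 and 7.37 in NG2 tumors, against 6.57, 6.38 and 5.54 in NG2 controls, high in tumor 3 alone, and Cytl1, a small secreted protein, had 5.49, 4.68, 7.91 and 12.25 in NG2 tumors, against 5.58, 6.05 and 6.10 in NG2 controls, high in tumor 4. Xist, the RNA of the inactive X chromosome, was high in tumors 1 and 2 and in control 2 and near background on the other arrays. Arrays with and without Xist signal thus occurred in both groups.

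For a large share of genes the data bound the change rather than show one. The 95% interval of the change lay within 2-fold in both directions for 3888 genes (32.6% of those tested), of which 3686 did not pass the test. Such genes made up 104 of 181 measured zinc finger genes, 33 of 69 genes of the mitochondrial ribosome, 22 of 52 of the cytosolic ribosome and, near the share over all genes, 21 of 66 of the respiratory chain and ATP synthase. In the postsynaptic, kinetochore and replication lists the number was 0. For the other 2198 genes that did not pass, the interval reached past 2-fold, so a change of that size was not excluded.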

How the data were processed

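RNA of frozen tissue was labelled with biotin and hybridised to Illumina bead arrays, per the labels' protocols. The authors deposited the average bead intensity of 45281 probes on 13 arrays, not normalized, together with a detection p-value for each probe and array, per the file headers. A second table deposited by the authors held normalized log2 values of 38563 probes, with column medians of 5.29 to 5.30 on the NG2 arrays. Its processing is not stated in these sources; it correlated at 0.99998 or more with the values computed here and differed from them by at most 0.0606, so it is on the log2 scale, with no centring of genes and in the same direction.

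The intensities were background-corrected, quantile-normalized and log2-transformed with neqc (offset 16) in limma 3.58.1 and R 4.3.3. Of the probes, 32093 carried 1 gene symbol, 16 several and 13172 none in the platform annotation, and 32035 were matched to RefSeq GRCm38.p6 by Entrez number. Probes were kept if their detection p was below 0.05 on 3 or more of 13 arrays (23904, of which 18876 had a symbol), and the brightest probe stood for its gene, which left 11927 genes. For 91 of 4680 genes with several probes, probes had significant changes of opposite sign. All 13 arrays were fitted with 1 mean per group and an intensity trend, and the contrast NG2 tumor minus NG2 control was tested with the Benjamini-Hochberg adjustment over all genes. The fit was checked on simulated data. The number of arrays limits the precision. A bound compares the bright group's mean with the lowest signal among probes called above background on each array of the other group, or the probe's own signal where that is higher. No pair of arrays held identical values (0 pairs), and nothing but the labels says that samples came from separate mice, so p-values measure the spread between these samples.

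Tumors and controls share replicate numbers, but the deviations of samples with the same number did not pair (correlations of -0.0589, -0.0517 and -0.0358). By the letters of the sample titles, tumors 4, 1 and 2 match controls 1, 2 and 3, with correlations of 0.115, 0.0295 and 0.0662. Whether these letters mark pairs is not stated, and no fit used them. The arrays, gene lists and tests were chosen with earlier results of these data known. The genes named were the 20 largest changes in each direction without overlap, the 10 largest bounds in each direction, up to 8 leading members of each list and all members of lists of 12 or fewer, the 12 genes that varied most among tumors, and 12 genes of the model and its cell types. Alternatives changed the background correction, normalization, source of values, dim-probe filter, arrays in the fit, slide, pairing, probe choice, weights and trend, and left out each NG2 array in turn.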

Additional observations from a re-analysis of the deposited data

Results flagged for a closer look

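In 13 of the 182 named genes with a test, 1 of the 4 NG2 tumors lay apart from the other 3 by Dixon's criterion at the 95% level, which chance meets in about 1 of 20 groups. Some of the named genes were chosen for their spread among the tumors, so this count is a description and not a test. Tumor 1 stood apart in 7 of them: it was the highest for Mtss1 (12.60), Hoxc9 (8.52) and Hoxd8 (8.51) and the lowest for Cd44 (11.26), Mcam (9.60), Hhipl2 (5.20) and Hoxa2 (5.16). Tumor 2 stood apart for Mcm3 (9.59), Smo (8.61) and Inpp4b (5.35), tumor 3 for Cck (6.49) and Kcnh3 (4.76), and tumor 4 for Hmox1 (8.17). The probes used for Kcnh3 and Inpp4b were not above background on any tumor, so the order there carries no information.

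For 26 named genes the change in NG2 tumors differed from the change in Nestin tumors (limma, contrast of the 2 changes, adjusted p below 0.05), against 453 of all 11927 genes, or 3.80%. Many named genes were chosen for large NG2 changes, which are part of this contrast, so the count is a description and not a test. With slide as a block 184 of all genes differed, and with the replicate block 190. The values are the NG2 change minus the Nestin change, and those of genes near background in 1 group are fitted values rather than bounds. Genes whose NG2 and Nestin controls lay far apart differed by -7.13 (Calb2), -6.16 (S100a5), -5.40 (Th) and -5.23 (Scgn). All 4 were far higher in NG2 controls than in Nestin controls, and that gap is part of these values. Other neuronal genes fell further in NG2 tumors: Gria1 (-4.83), Gad2 (-4.36), Slc32a1 (-4.20), Rbfox3 (-3.70), Ddn (-3.29), Actl6b (-2.83), Gng13 (-2.54), Rasgrp1 (-2.40) and Nrsn2 (-2.04). The same held for the imprinted gene Usp29 (-3.62). Inpp4b had a value of -1.94, but its probe was near background in the tumors of both models. Its mean was 4.68 in Nestin tumors and 6.45 in Nestin controls. Its value therefore does not show a lower level in NG2 tumors, and the gap between the 2 control groups is part of it. The imprinted gene Peg3 (-2.49) and the astrocyte genes Gjb6 (-4.40) and Slc6a11 (-3.68) fell in NG2 tumors only. Their Nestin changes of -0.19, -0.43 and 0.09 did not pass. Egfr (-3.93) and Slc7a11 (-2.41) had NG2 changes of -0.92 and -1.46, against Nestin changes of 3.01 and 0.96. In the other direction lay Mcam (4.90), the oligodendrocyte lineage genes Plxnb3 (4.27), Sox10 (3.15), Gal3st1 (3.14) and Ugt8a (2.97), and the replication helicase gene Mcm3 (1.91).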

How the results depend on the processing

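The number of genes that passed for NG2 tumors against NG2 controls, 6043, was 4400 to 6774 under the 14 other settings and 5122 (without control 3) to 5907 when 1 array was left out, within 1.5 times throughout. Of the 167 named genes that passed, 160 passed in the same direction in each of the 21 alternatives that could be run for them, Met, Nf1, Csf1r, Slc7a11, Mtss1, Ndufa11 and Zwint did not, and 6 that did not pass gained a call in some. The sign turned for Zwint with the mean of its probes (0.31), and for 3 genes that did not pass when 1 array was left out: Gfap ranged from -0.10 (without tumor 1) to 0.69, Hoxc9 from -0.05 (without tumor 1) to 1.30, and Cd3e from -0.40 to 0.04 (without control 2). Of 2352 counts over 56 lists, 153 moved by more than 1.5 times. The replicate block gave 5387 genes, and no pairing of samples by number was found. The number of genes whose change differed from that in Nestin tumors, 453, was 184 with slide as a block, 190 with the replicate block and 829 with array weights, 311 to 462 under the other settings, and 237 (without control 3) to 631 when 1 array was left out, with 270 without control 2. The excess of the Met to Cftr stretch in tumor 2, 5.51, was 4.28 with normexp and 3.34 without background correction; these settings, added after seeing the data, kept the other 3 stretches within 1.5 times. The cause of these differences was not tested. Signals near background limit low genes: a fold there is a lower bound.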
